A study of Mus musculus with 6 samples.

Results

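The matrix metalloproteinases, the Adamts proteases and their inhibitors, the Timps, were followed in mouse femur after focal radiation. The genes were taken by name and biotype: every protein-coding gene in the deposited table whose symbol is Mmp, Adamts or Timp followed by a digit. This gave 46 of 43346 genes, namely 23 Mmp, 19 Adamts and 4 Timp genes. The values come from 6 RNA-seq libraries of femurs of C57BL/6 mice, an inbred laboratory strain, aged 4 months. The 3 radiated libraries are from right femurs in which 5 mm of the distal metaphysis, the spongy bone beside the growth plate, received 24 Gy in 1 dose at 6.6 Gy per minute. The 3 non-radiated libraries are from the left femurs, the opposite leg of radiated animals. All bones were taken on day 21, chosen because bone loss was seen at day 28, so the comparison addresses transcripts before that loss. The control is therefore a leg of a treated mouse, with no sham treatment named, and whether a library holds 1 mouse or several is not given.

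Matrix metalloproteinases (MMPs) are zinc-dependent enzymes that cut collagens, gelatin, elastin and other proteins outside the cell. Adamts enzymes are secreted zinc proteases with thrombospondin repeats, and different members cut aggrecan and versican, trim procollagens or cut von Willebrand factor. The Timps bind the active site of these enzymes and block it. In bone, Mmp13 and Mmp14 are known for collagen turnover by osteoblasts and hypertrophic chondrocytes, Mmp9 is abundant in osteoclasts and neutrophils, and Mmp8 and Mmp25 are neutrophil enzymes.

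Total gene counts were 34034251 to 48708383 per library. In non-radiated library 2 a single gene, AY036118, held 32.9% of the counts, against 0.321% to 5.61% in the others, which left that library with less depth for the rest. Without it 5 of the 7 calls on these genes remained (lost were Mmp23 and Timp2). Levels are in CPM, counts brought to a common library size by the TMM method (trimmed mean of M-values), and a gene was called when the Benjamini-Hochberg adjusted p of edgeR's quasi-likelihood test over all 18757 genes tested was under 0.05. With library totals in place of TMM the median log2 fold change over the tested genes moved from 0.00 to 0.19, and the calls over all genes went from 856 higher and 607 lower to 854 higher and 146 lower. Defining markers of osteoblasts (9 genes) and osteocytes (5 genes) were counted in every library. Because these are whole bone pieces, fewer cells of a type and less RNA per cell cannot be told apart.

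The promoter sequences of genes that behaved differently are shown first, because 10 of the 46 genes sit side by side in 1 cluster and yet ranged from 0 counts to among the highest levels of the family. RefSeq's table for build GRCm38.p6 held 35 promoters for 32 of the 46 genes. The sequences are the 250 bases before the annotated start, on the gene's strand, with the letters of 3 motifs in capitals. The motifs searched on both strands were TGANTCA, the site of the AP-1 factors (Fos and Jun proteins), TATAAA, the TATA box, and TGTGGT, the core of Runx sites, and none of the matches shown overlap each other. Mmp12 (chr9:7347124-7347373, plus strand, the second of its 2 starts) rose, Mmp13 (chr9:7272264-7272513, plus), Mmp3 (chr9:7445572-7445821, plus) and Mmp8 (chr9:7558179-7558428, plus) were not called, Timp2 (chr11:118355412-118355661, minus) rose and Timp3 (chr10:86300162-86300411, plus) fell.
Mmp12: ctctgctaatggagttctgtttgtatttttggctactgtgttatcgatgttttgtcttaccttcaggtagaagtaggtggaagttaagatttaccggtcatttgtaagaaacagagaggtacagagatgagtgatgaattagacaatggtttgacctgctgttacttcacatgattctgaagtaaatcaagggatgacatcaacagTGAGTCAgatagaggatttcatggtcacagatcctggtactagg
Mmp13: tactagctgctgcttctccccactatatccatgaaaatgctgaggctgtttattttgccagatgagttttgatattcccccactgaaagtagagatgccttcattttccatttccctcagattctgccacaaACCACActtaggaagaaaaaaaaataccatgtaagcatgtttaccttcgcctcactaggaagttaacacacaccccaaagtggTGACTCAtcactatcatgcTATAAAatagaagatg
Mmp3: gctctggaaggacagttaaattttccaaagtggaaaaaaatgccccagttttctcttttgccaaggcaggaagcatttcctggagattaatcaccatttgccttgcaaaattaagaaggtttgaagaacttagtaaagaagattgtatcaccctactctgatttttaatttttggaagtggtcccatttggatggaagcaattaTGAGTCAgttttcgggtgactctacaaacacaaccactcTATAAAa
Mmp8: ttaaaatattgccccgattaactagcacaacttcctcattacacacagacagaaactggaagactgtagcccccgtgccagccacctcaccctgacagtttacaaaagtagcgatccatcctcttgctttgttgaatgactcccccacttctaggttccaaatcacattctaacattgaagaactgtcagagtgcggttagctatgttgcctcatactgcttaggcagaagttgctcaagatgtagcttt
Timp2: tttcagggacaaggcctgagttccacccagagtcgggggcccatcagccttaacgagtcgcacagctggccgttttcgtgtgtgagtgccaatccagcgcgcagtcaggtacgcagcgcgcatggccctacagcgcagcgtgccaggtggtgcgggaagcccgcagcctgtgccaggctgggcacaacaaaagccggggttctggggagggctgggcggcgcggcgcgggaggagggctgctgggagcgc
Timp3: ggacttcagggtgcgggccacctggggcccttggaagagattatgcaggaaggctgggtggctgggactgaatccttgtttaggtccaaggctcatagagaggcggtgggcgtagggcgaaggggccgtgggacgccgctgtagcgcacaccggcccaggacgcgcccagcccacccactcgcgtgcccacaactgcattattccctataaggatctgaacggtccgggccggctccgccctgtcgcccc
The window before the first start of Mmp12 (chr9:7344147-7344396), the one close to the gene start in the deposited table, held none of the 3 motifs. The AP-1 letters began at position -44 before the second start of Mmp12, -35 in Mmp13 and -46 in Mmp3, counting the base just before the start as -1. The promoter of Mmp13, a collagenase known as a target of AP-1 and Runx2, also held the Runx letters at -118, on the opposite strand. It held the letters TATAAA at -16. A match was counted at any position in the window, and its function was not tested. The windows of Mmp8, Timp2 and Timp3 held none of the 3 motifs. Of the 10 cluster genes 8 had the AP-1 letters in a promoter, and of the other 22 genes with a promoter in the table, 0 had them. The members without an entry all lie outside the cluster, among them Mmp2, Mmp9 and Mmp16, and their promoters were not searched. Over all 32851 promoters in the table, the share with the AP-1 letters was 6.75%, with the letters TATAAA 12.4% and with the Runx letters 14%. Of the 8 cluster genes with the AP-1 letters, 4 (Mmp1a, Mmp1b, Mmp7 and Mmp10) had 0 counts in every library.

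Of the 46 genes 35 passed the filter on low counts. Among these, 5 rose in radiated femur (Mmp12, Mmp15, Mmp2, Mmp23 and Timp2) and 2 fell (Mmp16 and Timp3). That is 20% of those tested, and over all genes tested 7.8% were called, 4.56% higher and 3.24% lower. In 18 of the 35 the CPM ranges of both groups were apart, with 13 higher and 5 lower in the radiated libraries. Over all genes tested 25.9% had ranges apart, 14.4% higher and 11.5% lower. The log2 fold change was above 0 for 26 of the 35, against 50.5% of all genes, and the median was 0.21 against 0.00. No member passed the filter through 1 group alone. With the replicate number as a block 11 members were called, 8 higher and 3 lower, and the 4 added were Mmp8, Adamts7, Adamts9 and Timp4. The block also called more of all genes, 8.9%. With library totals alone 5 members were called, 4 higher and 1 lower, and 5.33% of all genes.

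**Figure D1:**
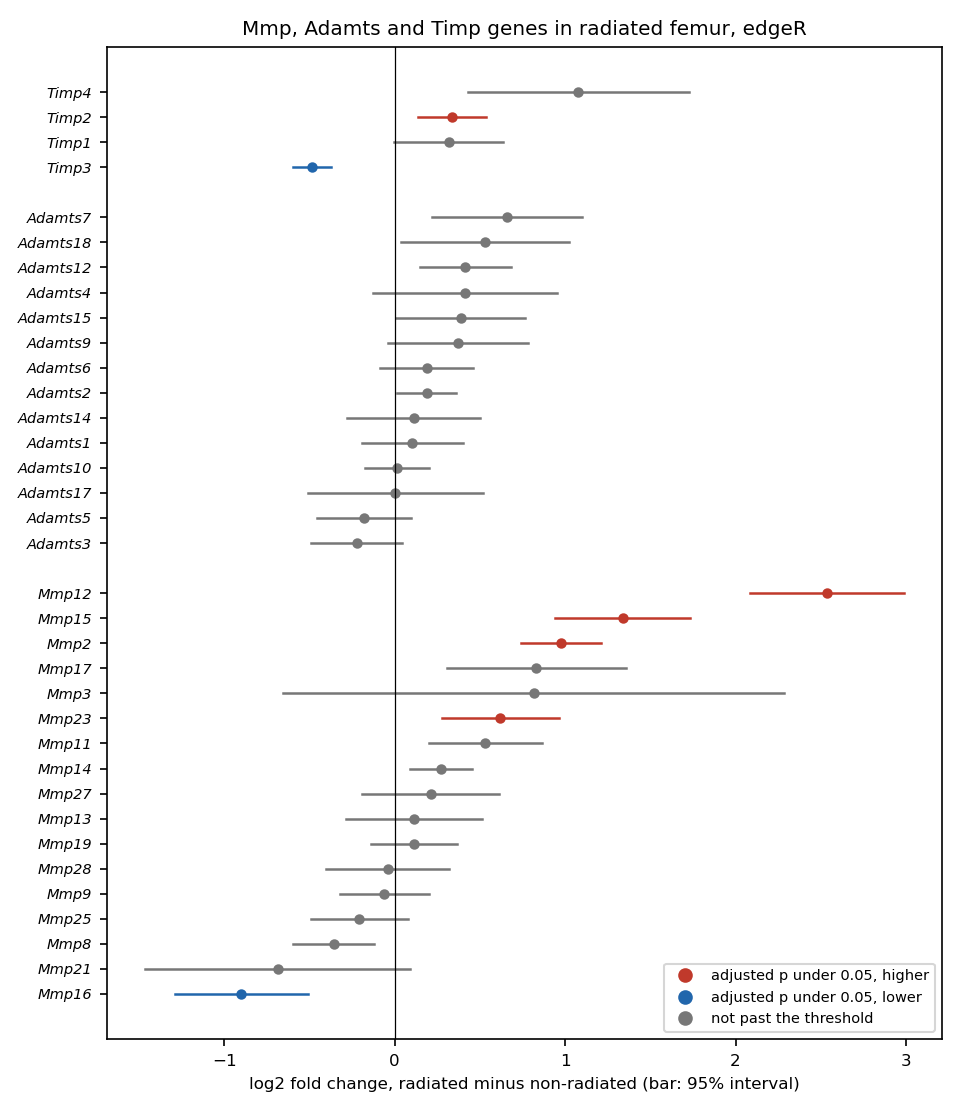
Log2 fold change (radiated minus non-radiated, x axis) of the 35 tested genes, with 95% intervals from edgeR and colours for genes past the threshold. Mmp12 at 2.54 lies furthest right and Mmp16 at -0.90 furthest left, and none of the 14 Adamts genes is coloured.

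Mmp12, macrophage elastase, had the largest change of the tested members. Its level was 1.59, 1.52 and 1.06 CPM in non-radiated libraries 1, 2 and 3 and 8.93, 8.69 and 6.43 CPM in radiated libraries 1, 2 and 3. Every radiated library was several times above every non-radiated one. The means were 1.39 ± 0.287 and 8.02 ± 1.38 CPM (SD, n = 3 each), a 5.81-fold rise (95% interval 4.25 to 7.94, edgeR adjusted p 9.61e-05). It was called in each of the 14 alternatives, with a log2 fold change of 2.28 to 2.73. Of the markers of macrophages, the cells the enzyme is known from, 7 of 12 were called higher and 1, Cd163, was called lower. The summed level of these markers was 934 to 1007 CPM in non-radiated and 1138 to 1345 CPM in radiated libraries, a ratio of means of 1.27. The part of the macrophage markers in the rise of Mmp12 was not tested.

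Mmp12 (ENSMUSG00000049723) lies on chromosome 9 (7344381 to 7369499, mm10) in the cluster named above, in which 10 Mmp genes are spread over 427 kb. Its neighbour Mmp13, at 72 kb, had a log2 fold change of 0.11 (95% interval -0.28 to 0.51, edgeR adjusted p 0.774). Further along, Mmp3, a stromelysin that cuts many matrix proteins, had 20, 8 and 3 counts without radiation and 19, 46 and 10 counts with it, so the groups overlapped. Mmp27 was at 2.01 to 2.99 CPM and 2.79 to 3.22 CPM, overlapping. Mmp20, the tooth enamel protease, had 1, 0 and 2 counts in radiated and 0 in non-radiated libraries. For the 4 cluster genes with 0 counts the depth allows up to 3 counts, which is 0.0562 to 0.120 CPM per library. One of these, Mmp1b, overlaps the end of Mmp12, and reads there could be assigned to neither gene if strand was not used.

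**Figure D2:**
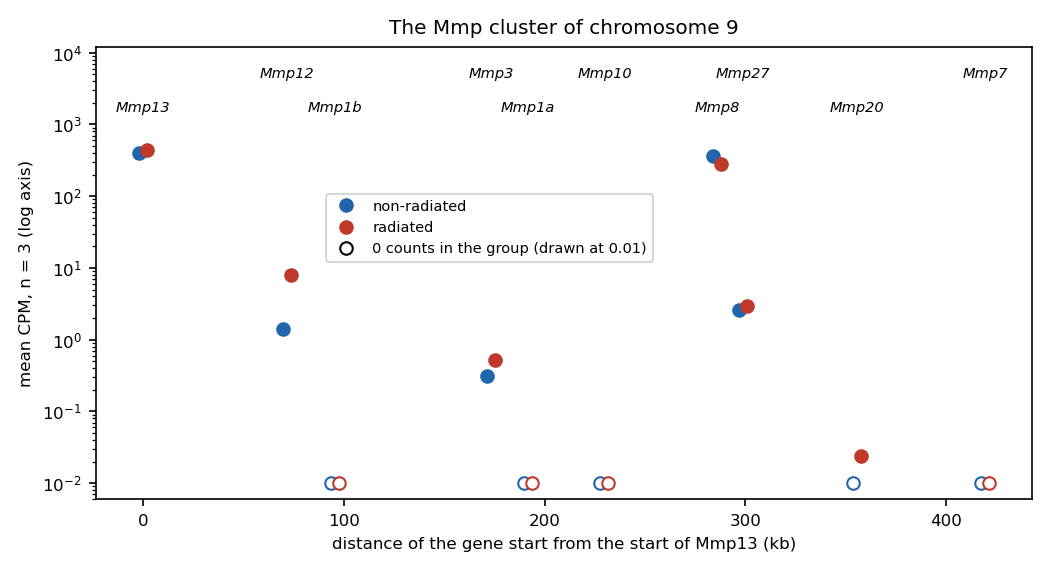
Mean CPM (log axis, n = 3 per group) of the 10 genes of the chromosome 9 cluster against the distance of their start from that of Mmp13 in kb; open circles mark groups with 0 counts. Mmp12, at 1.39 and 8.02 CPM, has the widest gap between groups of the 5 tested genes, and Mmp13 and Mmp8 have the highest levels.

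Of the gelatinases, which cut denatured collagen and basement membrane, Mmp2 rose and Mmp9 was not called. Mmp2 (chromosome 8, 92827328 to 92853417), made mainly by stromal cells and fibroblasts, was at 58.7, 44.8 and 48.7 CPM in the non-radiated libraries and 110, 98.1 and 91.6 CPM in the radiated libraries. The lowest radiated library was far above the highest non-radiated one. The means were 50.8 ± 7.16 and 100 ± 9.52 CPM (SD, n = 3 each), a 1.97-fold rise (95% interval 1.67 to 2.31, edgeR adjusted p 0.000679). The rise was called in all 14 alternatives. The summed stromal, fibroblast and tendon markers were 1342 to 1405 CPM in non-radiated and 1049 to 1213 CPM in radiated libraries, with 2 of 8 tested, Lepr and Pdgfra, called lower. The other way, 4 of the 8 had positive log2 fold changes, none called, and the median was 0.10. Mmp9 was at 510, 524 and 652 CPM and at 598, 551 and 468 CPM, with overlapping groups. Its log2 fold change was -0.06 (95% interval -0.32 to 0.20, edgeR adjusted p 0.823), and it changed sign in 3 alternatives.

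Among the collagenases, which cut fibrillar collagen, no member was called. Mmp13 was at 501, 297 and 403 CPM in non-radiated and 464, 356 and 481 CPM in radiated libraries. In both groups library 2 was the lowest. Without non-radiated library 2 its log2 fold change was -0.074, against 0.11 over all 6 libraries. Beside it, the summed osteoblast markers were 4577 to 6887 CPM in non-radiated and 3399 to 4316 CPM in radiated libraries, with 3 of 9 called lower. Most of that sum was a single gene, Col1a1, at 4079 to 6185 CPM in non-radiated and 2984 to 3767 CPM in radiated libraries. The median log2 fold change of the 9 markers was -0.51, with 8 negative and 1 positive. The summed chondrocyte markers were 343 to 755 CPM and 272 to 402 CPM, with 1 of 10 called lower, and they were also lowest in library 2 of each group.

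Mmp8, the neutrophil collagenase, was at 352, 391 and 351 CPM in the non-radiated libraries and 296, 321 and 236 CPM in the radiated libraries. The groups did not overlap, and the difference on the log2 scale was -0.36 ± 0.11 (SE), with an edgeR adjusted p of 0.0773. It was called with the replicate block (adjusted p 0.0230), in the fit with the summed muscle markers as a covariate (-0.60, 0.00247) and without radiated library 2 (-0.45, 0.0323). No filter (0.0145) and DESeq2's Wald test (0.00208) also gave the call, and over all settings the adjusted p reached from 0.00208 to 0.772. The difference was smaller with library totals alone (-0.15, 0.772) and without radiated library 3 (-0.24, 0.106). Mmp25, a membrane-anchored enzyme of neutrophils, was at 45.0, 52.9 and 58.5 CPM and at 47.9, 50.4 and 37.1 CPM, with overlapping groups and a difference of -0.21 on the log2 scale (edgeR adjusted p 0.397), which was -0.085 without radiated library 3. All 12 neutrophil markers had negative log2 fold changes with no overlap between groups, and 3 were called. Their summed level was 14879 to 19044 CPM in non-radiated and 11814 to 13792 CPM in radiated libraries, a ratio of means of 0.764. The part of the neutrophil markers in the difference of Mmp8 was not tested.

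**Figure D3:**
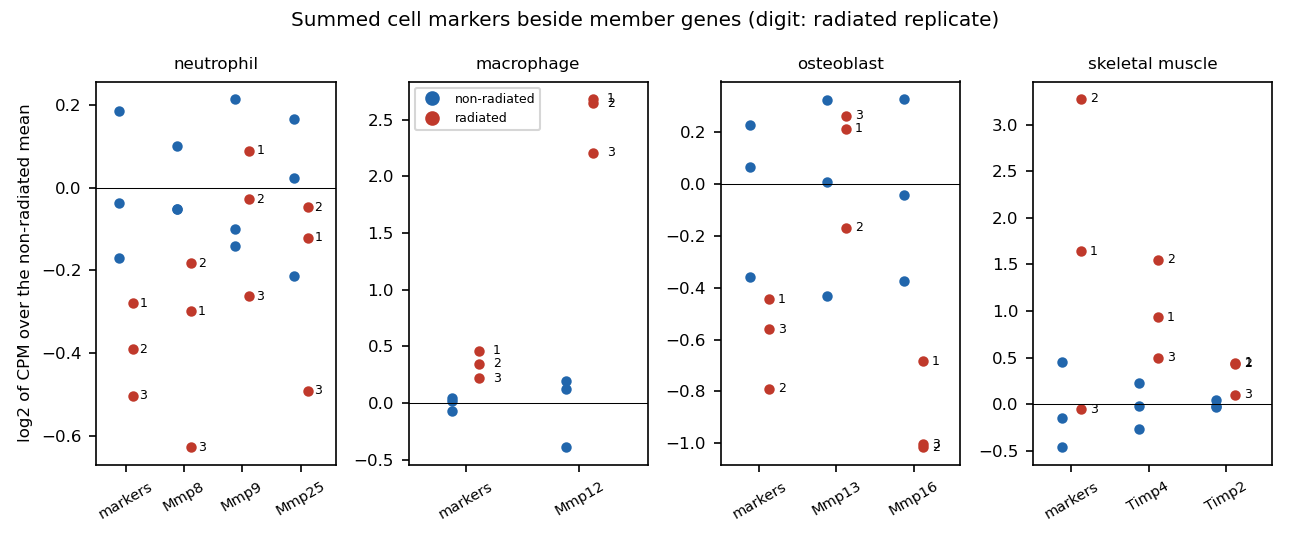
Log2 of CPM relative to the non-radiated mean for the summed markers of 4 cell types and for genes beside them, 1 point per library. Neutrophil markers and Mmp8 lie below the non-radiated points in all 3 radiated libraries, Mmp12 lies far above the macrophage markers, and muscle markers and Timp4 are both highest in radiated library 2.

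Membrane-type MMPs sit on the cell surface, where Mmp14 also activates Mmp2 together with Timp2. Mmp15 (chromosome 8, 95352268 to 95374293) rose from 0.987, 1.12 and 1.39 CPM to 2.98, 2.96 and 2.96 CPM, so the radiated libraries were nearly equal. The fold change was 2.53 (95% interval 1.92 to 3.33, edgeR adjusted p 0.00211), and it was called in all 14 alternatives. Mmp16 (chromosome 4, 17852893 to 18119145) was the 1 MMP that fell. It was at 20.2, 12.4 and 15.6 CPM in non-radiated and 9.99, 7.94 and 8.0 CPM in radiated libraries, with no overlap although the non-radiated libraries were widely spread. It was 1.86-fold lower (edgeR adjusted p 0.0135), or -0.90 ± 0.17 on the log2 scale (SE). Of 14 alternatives 13 kept the call, and the muscle covariate ended it (-0.84, adjusted p 0.0805). The summed osteoblast markers, mostly Col1a1, were 1.51-fold lower in the ratio of means, and their part was not tested.

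Mmp14 was at 66.1, 56.1 and 68.7 CPM and at 81.7, 75.8 and 73.3 CPM. The groups did not overlap, but its log2 fold change of 0.27 was not called (SE 0.08, edgeR adjusted p 0.0769, 0.0590 with the replicate block). Without non-radiated library 2 it was 0.18. Mmp17 was at 0.639 to 0.873 CPM in non-radiated and 1.07 to 1.48 CPM in radiated libraries, and its log2 fold change of 0.83 was not called either (edgeR adjusted p 0.0642). Mmp24 was under the filter, with 0, 1 and 1 counts and 5, 2 and 1 counts.

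In the other MMPs, Mmp23 (chromosome 4, 155650655 to 155653384), a membrane-bound MMP without the usual hemopexin domain, rose from 4.83, 3.79 and 5.24 CPM to 8.08, 6.89 and 6.45 CPM. The fold change was 1.54 (95% interval 1.21 to 1.95, edgeR adjusted p 0.0396). The call was lost without non-radiated library 1 (adjusted p 0.0934) or 2 (0.120), without radiated library 1 (0.141) or 2 (0.0697), with library totals alone (0.0576) and with the muscle covariate (0.137). Mmp11, stromelysin 3, was at 2.79 to 3.92 CPM and at 4.88 to 4.99 CPM, without overlap and not called (edgeR adjusted p 0.0618). Mmp19, Mmp21 and Mmp28 had log2 fold changes of 0.11, -0.69 and -0.04, and none was called (edgeR adjusted p 0.628, 0.296 and 0.918).

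**Figure D4:**
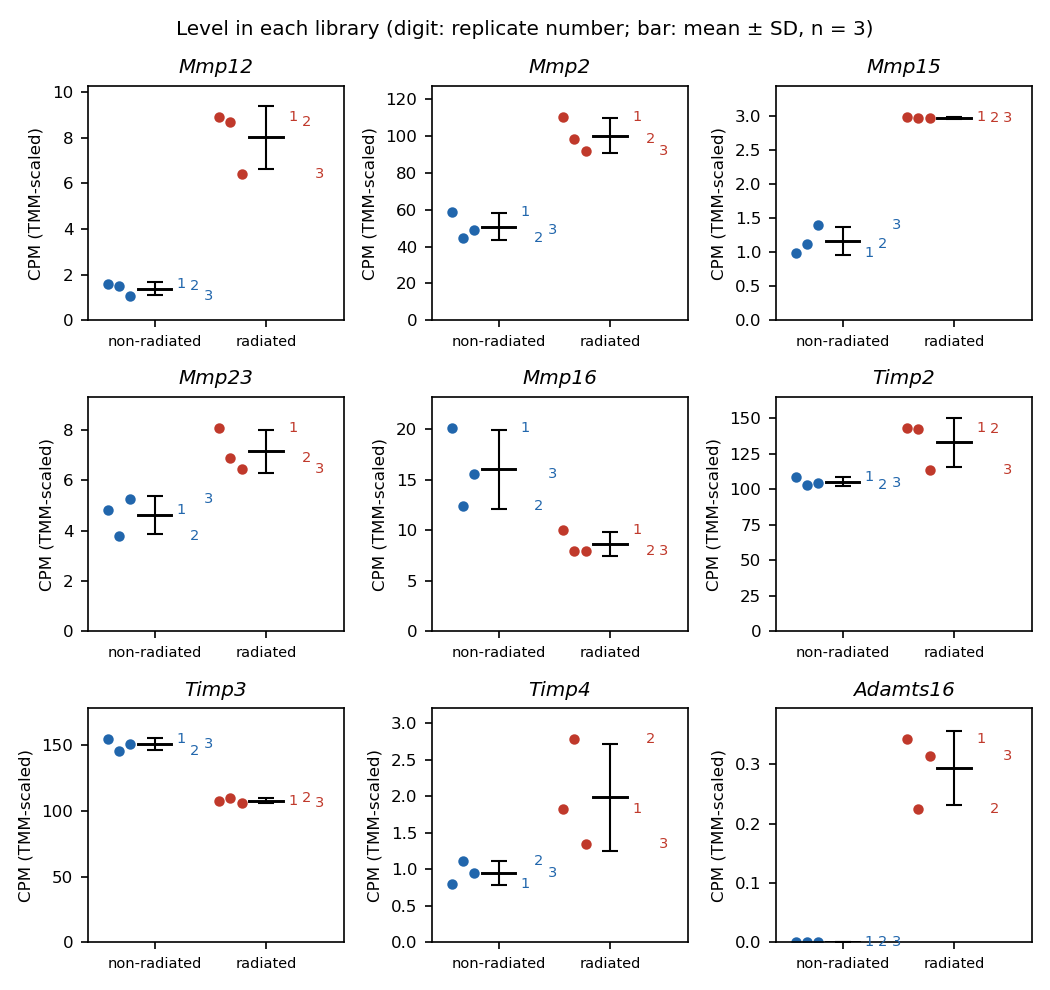
CPM in each library for the 7 called genes, Timp4 and Adamts16, with mean and SD (n = 3 per group) and each axis starting at 0; digits give the replicate number. The groups do not overlap in any of the 9 panels, and the non-radiated libraries of Adamts16 are at 0. These genes were picked with the results known, and over all genes tested 25.9% had ranges apart.

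The 4 Timps did not move together. Timp3 (chromosome 10, 86300372 to 86349506), which is bound to the matrix and inhibits Adamts enzymes and Adam17 as well as MMPs, fell. It was at 155, 146 and 151 CPM in the non-radiated libraries and 108, 110 and 106 CPM in the radiated libraries. Both groups were tight and far apart, with means of 151 ± 4.57 and 108 ± 2.02 CPM (SD, n = 3 each). The level fell by 0.48 on the log2 scale (SE 0.05), at an edgeR adjusted p of 0.000533. It was called in 13 of 14 alternatives, and with library totals alone it was -0.30 (adjusted p 0.617), while all genes then had a median of 0.19.

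Timp2 (chromosome 11, 118301069 to 118355740), the inhibitor that also forms the complex by which Mmp14 activates Mmp2, rose from 109, 103 and 104 CPM to 144, 143 and 113 CPM. Radiated libraries 1 and 2 were well above all others and radiated library 3 lay just above the non-radiated range. The rise of 0.34 on the log2 scale (SE 0.09) had an edgeR adjusted p of 0.0487, close to the threshold. It was lost without non-radiated library 1, 2 or 3 (adjusted p 0.104, 0.160 and 0.102), without radiated library 1 or 2 (0.166 and 0.130), with DESeq2 size factors (0.0503) and with limma-voom (0.0660). Library totals alone (0.146) and the muscle covariate, with which the log2 fold change was 0.18 (adjusted p 0.363), also ended it. Without radiated library 3 it was kept (0.44, 0.00288).

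Timp1, the inducible and soluble family member, was at 10.8, 7.71 and 10.6 CPM and at 13.7, 11.7 and 11.1 CPM, with a log2 fold change of 0.32 that was not called (edgeR adjusted p 0.239) and was 0.17 without non-radiated library 2. Timp4, known from heart, muscle and fat, was at 0.795, 1.12 and 0.944 CPM and at 1.82, 2.79 and 1.34 CPM. Radiated library 2 was highest, and the groups did not overlap. The difference of 1.08 on the log2 scale (SE 0.29) was not called (edgeR adjusted p 0.0548), but it was called with the replicate block (adjusted p 0.0297) and without radiated library 3 (1.30, 0.0193). The 16 skeletal muscle markers, of which 0 were called, summed to 585, 890 and 472 CPM in non-radiated libraries 1, 2 and 3. In radiated libraries 1, 2 and 3 the sums were 2024, 6286 and 626 CPM. The order of the radiated libraries was that of Timp4, and the order of the non-radiated libraries was not. With these markers as a covariate the log2 fold change of Timp4 was 0.47 (adjusted p 0.396). The muscle sum was itself 4.59-fold higher in radiated libraries by the ratio of means. Every fit with this covariate therefore cannot fully separate it from the group, and the part of muscle was not tested. The summed adipocyte markers, all 7 called higher, were 131 to 149 CPM and 307 to 411 CPM. The median log2 fold change of these 7 genes was 3.16, and their part was not tested.

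Timp1, Timp3 and Timp4 lie inside the synapsin genes Syn1, Syn3 and Syn2, on the opposite strand. No source says if reads were counted by strand, so reads of host and guest could be mixed. Syn3 was at 0.281 to 1.11 CPM, far below Timp3, and Syn1 at 1.16 to 1.58 CPM, below Timp1. Syn2, not far below Timp4, was at 0.411, 0.279 and 0.543 CPM in non-radiated and 0.713, 0.655 and 0.784 CPM in radiated femurs. It was thus higher in each radiated library, as Timp4 was, with a log2 fold change of 0.75 that was not called (edgeR adjusted p 0.169), and its part in the difference of Timp4 was not tested. Timp4 also overlaps Gm17482. In all, 19 of the 46 genes overlap another gene in the table, and among the called ones Mmp16 overlaps Gm11860 and Timp2 overlaps BC100451.

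Of the 19 Adamts genes 14 were tested and none was called by edgeR, with log2 fold changes from -0.22 to 0.66 and adjusted p from 0.0671 to 0.996. At an unadjusted p under 0.05 there were 5, Adamts2, Adamts7, Adamts12, Adamts15 and Adamts18, all with positive log2 fold changes, and over all genes tested 21.5% had such a p. DESeq2's Wald test called 2, Adamts7 and Adamts12, and 9.71% of all genes. The 2 enzymes known to cut cartilage oligomeric matrix protein were among the tested Adamts genes without overlap between groups. Of the 14 tested, 3 had ranges apart with radiated higher and 1 with radiated lower. Over all genes tested these shares were 14.4% and 11.5%. Adamts7 was at 2.41, 2.56 and 3.78 CPM in non-radiated and 5.02, 3.95 and 4.97 CPM in radiated libraries (log2 fold change 0.66, edgeR adjusted p 0.0765), and it overlaps Tbc1d2b. It was called with the replicate block (0.0379) and without non-radiated library 3 (0.90, 0.0232). Adamts12 was at 7.87, 6.19 and 7.50 CPM and at 10.2, 9.25 and 9.41 CPM (0.42, edgeR adjusted p 0.0671). Comp itself, one of the listed substrates, was called higher at 0.77 (edgeR adjusted p 0.00705).

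The aggrecan- and versican-cleaving enzymes Adamts1, Adamts4 and Adamts5 were not called. Adamts5, the main aggrecanase of mouse cartilage, was at 38.0, 33.1 and 37.9 CPM and at 36.1, 34.4 and 25.9 CPM, with a 95% interval of the log2 fold change of -0.45 to 0.09. Adamts4 was at 2.25, 1.36 and 2.88 CPM and at 3.20, 2.85 and 2.73 CPM, with an interval of -0.13 to 0.95. Adamts1, at 6.51 to 8.71 CPM and 7.84 to 8.90 CPM, had an interval of -0.19 to 0.40. Adamts9, at 40.5, 28.0 and 45.6 CPM and 56.7, 38.8 and 53.0 CPM, was higher in radiated libraries for each replicate number, by 0.49, 0.47 and 0.22 on the log2 scale. It was called with the replicate block alone (0.39, adjusted p 0.0179, against 0.278 without), and without non-radiated library 2 its log2 fold change was 0.19 in place of 0.37. The procollagen-trimming enzymes Adamts2, Adamts3 and Adamts14 had log2 fold changes of 0.19, -0.22 and 0.11, none called. Adamts10, the Adamts gene of highest level per length at 8.84 CPM per kilobase, was at 0.015, and Adamts6, Adamts15, Adamts17 and Adamts18 were at 0.19, 0.39, 0.0030 and 0.53.

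Adamts16 was counted in the radiated femurs alone, with 13, 12 and 14 counts against 0, 0 and 0. Against the 3 counts that a total of 0 allows for the non-radiated group, its level was at least 9.94-fold higher, a bound that covers counting error only, takes the radiated counts as exact and leaves out the spread between libraries. These few counts kept it under the filter. With no filter, where 7.2% of all genes were called, it was called (edgeR adjusted p 0.00110). It entered that fit through its radiated counts alone, so the call adds no support. DESeq2's Wald test gave it no adjusted p. Adamts8 had 0, 5 and 3 counts in radiated and 0 in non-radiated libraries, too few for a statement. Adamts13, which cuts von Willebrand factor and is made mainly in liver, had 3, 4 and 13 counts and 2, 18 and 5 counts. Adamts19 had at most 2 counts in a library, and Adamts20 had 8, 3 and 1 counts and 10, 24 and 6 counts, so no difference was detectable at this depth.

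Levels of different genes were compared per length, as CPM per kilobase. In descending order of the mean over all 6 libraries these were Mmp13 (156), Mmp9 (156), Mmp8 (132), Timp2 (30.6), Mmp14 (27.1), Mmp2 (24.8), Timp3 (15.9) and Mmp25 (14.4 CPM per kilobase). Mmp13 and Mmp9 cannot be ordered within their spread, at 150 ± 38.2 and 159 ± 22.1 without radiation and 162 ± 25.3 and 152 ± 18.5 after it (SD, n = 3). The mean of Timp3 was above that of Mmp2 in the non-radiated group, at 18.5 ± 0.561 against 16.7 ± 2.36, though not in non-radiated library 1, and below it in the radiated group, at 13.2 ± 0.248 against 32.9 ± 3.13 CPM per kilobase. The difference in the non-radiated group is within the spread of Mmp2. Mmp12 ranked at place 26 of 46, with 1.11 ± 0.190 CPM per kilobase in radiated femur.

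Mmp8, Mmp9 and Mmp13 together made up 86.9% to 87.1% of the summed Mmp level per length in non-radiated libraries and 82.2% to 83.1% in radiated libraries. The share of Mmp2 was 2.91% to 3.54% and 6.14% to 6.48%, that of Mmp12 at most 0.0436% and 0.235%. Summed over all members, the Mmp level per length was 481 to 550 and 491 to 561 CPM per kilobase, with overlapping groups. The ratio of the summed Timp to the summed Mmp level was 0.105 to 0.112 in non-radiated and 0.113 to 0.128 in radiated libraries. These sums are descriptions of the members and carry no test.

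**Figure D5:**
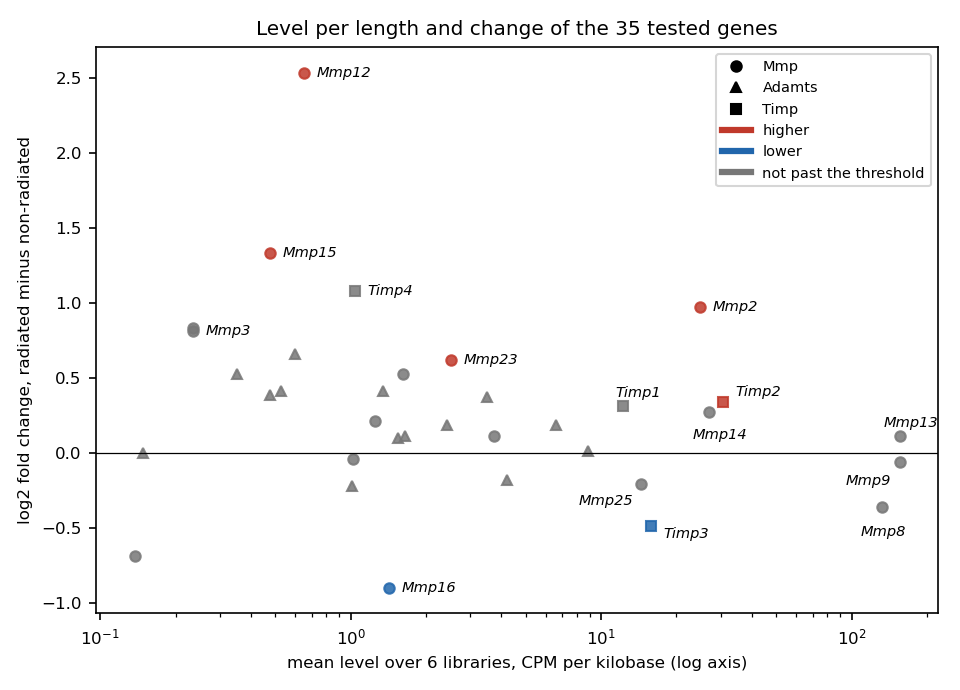
Mean level per length over 6 libraries (CPM per kilobase, log axis) against the log2 fold change of the 35 tested genes, with symbols for the families and colours for calls. The 3 genes of highest level, Mmp13, Mmp9 and Mmp8, are not called, and Mmp2 is the 1 called MMP above 10 CPM per kilobase.

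Other genes of matrix proteolysis were followed in 5 lists, of which 21 genes were called, 15 higher and 6 lower. Tested were 16 regulators, 11 genes of the plasminogen system, 7 Adamts-like genes, 13 Adam and astacin proteases and 19 substrates. Over all genes tested 7.8% were called, 4.56% higher and 3.24% lower. The lists were chosen with earlier results of these data known, so these counts are a description. The median log2 fold change was 0.013 for the regulators of the proteases, 0.040 for the plasminogen system, 0.40 for the Adamts-like genes, 0.074 for the Adam and astacin proteases and -0.024 for the substrates, against 0.00 over all genes. Of 16 tested regulators of these proteases 3 were higher and 3 lower. Thbs1, thrombospondin 1, which binds Mmp2 and Mmp9, fell from 552 ± 11.0 to 283 ± 13 CPM (log2 fold change -0.96, edgeR adjusted p 2.29e-05), and A2m, a general protease trap, fell by 1.92 on the log2 scale. Lrp1, the receptor that clears MMPs and Timps from the matrix, rose by 0.56 on the log2 scale (edgeR adjusted p 0.00844), a call lost with the muscle covariate (adjusted p 0.0529). In the plasminogen system, which activates pro-MMPs, 2 of 11 tested genes were higher and 1 lower. Plau, urokinase, rose from 24.7 ± 0.921 to 34.2 ± 2.85 CPM (SD, n = 3), while Serpinb2, an inhibitor of urokinase, fell by 1.31 on the log2 scale (edgeR adjusted p 0.00730 and 0.000729). The call of Plau was lost with library totals alone (adjusted p 0.0532) and with the muscle covariate (0.0547).

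Of 7 Adamts-like genes, which resemble Adamts proteins without a protease domain, Adamtsl3 was called, higher by 1.17 (SE 0.14, edgeR adjusted p 0.00132). Of 13 tested Adam and astacin proteases 4 were higher and 0 lower. These included Adam22 and Adam23, which lack protease activity, at 0.52 and 1.23 (edgeR adjusted p 0.00580 and 0.00385). Tll2, an astacin protease related to Bmp1, was at 0.110 ± 0.0717 and 0.772 ± 0.198 CPM (2.84, edgeR adjusted p 0.00672). Of 19 tested substrates 5 were higher and 2 lower. The basement membrane collagens Col4a1 and Col4a2 rose by 1.25 and 1.18 (edgeR adjusted p 0.000350 and 0.000231). Vwf, the substrate of Adamts13, fell from 341 ± 28.0 to 134 ± 7.17 CPM (-1.35, edgeR adjusted p 1.43e-05). Beside Thbs1 and Vwf, both stored in platelets, all 8 megakaryocyte markers were called lower, with a sum of 984 to 1054 CPM in non-radiated and 338 to 403 CPM in radiated libraries, and 2 of 7 endothelial markers, Tek and Vwf itself, were called lower, while 4 of the 7 had positive log2 fold changes, none called, and the median was 0.0044. Their part was not tested.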

How the data were processed

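RNA-seq gene counts were deposited by the authors for 3 radiated and 3 non-radiated femurs, with groups and replicate numbers taken from the labels. Per the labels' protocols, muscle was removed, bone was homogenized and stranded mRNA libraries were made. The submitters' processing notes name bcl2fastq, STAR 2.5.2b, Subread, featureCounts and build mm10. The annotation, the strand setting and any filter are not given in the sources used here. The deposited RPKM values, scaled by the authors per the file headers, were not used. Nothing in the labels says that libraries are separate animals, so p-values measure the spread between these libraries, which may be technical. Libraries of 1 group were not copies of each other (chi-square per degree of freedom 17.8 to 631). These values take in AY036118, whose share differed between libraries, and they were highest in the pairs with library 2 of a group.

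The test on the counts was run in R 4.3.3 with edgeR 4.0.16: filterByExpr (minimum count 10, minimum total 15), TMM, estimateDisp, glmQLFit and glmQLFTest with the group as the only term. The fit was also run on simulated counts, with the same spread (dispersion) for every gene. Apart from the changes set in some genes, all simulated libraries had the same gene proportions. That run therefore does not cover the AY036118 excess or any pairing by number. The standard error is the log2 fold change divided by the square root of F. Deviations from group means correlated at 0.166, 0.277 and 0.187 across genes for libraries of the same number and at -0.170 to -0.008 otherwise. Centring on group means makes the second set negative when the first is positive. The numbers may pair the libraries, but the labels do not say so. The main fit therefore kept the group alone, and a fit with the replicate block was run beside it. Further alternatives used the size factors and the Wald test of DESeq2 1.42.0, library totals alone, no filter, a mean of at least 1 CPM, limma-voom (limma 3.58.1), the summed muscle markers as a covariate, and leaving out each library.

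The members, the lists and the rule for naming genes were chosen with earlier results of these data known. The rule took all called members, the Timps, the 8 members of highest level per length, 11 members known from bone and marrow, all members under the filter, and in each list up to 3 called genes of smallest p, of which 1 is not reported here. Other members, and Comp, Cd163, Tek, Lepr, Pdgfra and the Syn genes, were named after their values were seen. All 183 list entries were found, 2 of them through the gene ID.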

Additional observations from a re-analysis of the deposited data

How the results depend on the processing

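The 35 tested members gave 488 values over 14 alternatives, of which 432 kept the direction and the side of the threshold. Calls were lost in 17, gained in 19 and the sign changed in 20, in 8 members of which none was called. Library totals alone gave 0.12 for Mmp9 and 0.18 for Mmp28. When each library was left out in turn, the log2 fold change ranged from -0.14 to 0.055 for Mmp9, -0.074 to 0.31 for Mmp13, -0.18 to 0.077 for Mmp28, -0.027 to 0.17 for Adamts1, -0.0084 to 0.34 for Adamts14, -0.046 to 0.087 for Adamts10 and -0.16 to 0.16 for Adamts17. Adamts17 was at -0.0055 with DESeq2 size factors, -0.0049 with DESeq2's Wald test and -0.0019 with limma-voom. The muscle covariate gave -0.41 for Mmp3 and -0.011 for Adamts10. Calls were gained by Mmp8 and Timp4 in 5 alternatives each, by Adamts7 in 4, by Mmp14 in 2 and by Mmp11, Adamts9 and Adamts12 in 1 each. Leaving out 1 library moved the log2 fold change of 19 of the 35 members by more than 1.5 times with the same sign, 0 of them called. The cause of these changes was not tested.

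Of the 7 called members all were called with the replicate block, which called 11 members and 1670 genes. Members called were 13 with no filter and 12 with DESeq2's Wald test, against 7. Over all genes the shares called were 7.2% and 9.71%, against 7.8%. The 13 take in Adamts16, which was in that fit through its radiated counts alone. When a library was left out 6 to 8 were called, a count that takes in Adamts16 in 5 of the 6 fits, where it passed the filter through the radiated libraries alone. Of the 7 called over all libraries 5 to 7 were called then, and the 5 came from leaving out library 1 or 2 of either group. Genes called were 974 with the muscle covariate, against 1463, and 764 to 1376 when a library was left out, the lowest without radiated library 1. It was 819 with non-radiated library 2 left out and 905 with non-radiated library 1 left out. With the muscle covariate 12 genes of the 5 lists were called, against 21. In the fits without 1 library the group of 2 is assumed to vary like the other group. Precision is limited by 3 libraries a group and, for the 11 genes under the filter, by depth.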

Other observations

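The promoters of the chromosome 9 Mmp genes differed in base composition from those of the other members with an entry. The windows of the 10 cluster genes held 37.2% to 53.2% G and C, and those of the 22 other genes with an entry 53.6% to 79.2%, with no overlap. The median over all promoters in the table was 52.4%. The TATA box letters stood in 7 of the 10 cluster genes and 2 of the 22 others. The 2 genes of highest level per length in that cluster, Mmp13 and Mmp8, differ in this respect, with all 3 motifs in the window of Mmp13 and none in that of Mmp8.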
